A study of Mus musculus with 4 samples.

Results

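The genes described here encode the proteasome, and the data are the open regions found around their 5′ ends in mouse salivary gland organoids (mSGOs). Members were all protein-coding genes of a RefSeq gene table of the GRCm38 genome whose symbols begin with Psma, Psmb, Psmc, Psmd, Psme, Psmf or Psmg and go on with a number. This gave 51 of the 21440 protein-coding genes that could be placed with a strand. The rule also took in Psmc3ip, a cofactor of meiotic recombination, and Psme3ip1, whose product binds the activator encoded by Psme3, and neither is a proteasome subunit. Open chromatin was measured by bulk ATAC-seq, in which the transposase Tn5 inserts adapters into accessible DNA. The 4 samples were non-irradiated organoids of C57BL/6 submandibular glands, with 2 samples at passage 1 and 2 at passage 2. At each passage the labels name 1 mouse of 12 weeks and 1 of 3 months, and the study describes 4 mice and organoids of day 7. All were grown in Matrigel with EGF, FGF2, insulin, dexamethasone, Y27632 and media conditioned with R-spondin1 and Wnt3a, so every value describes cultured gland epithelium under these factors and not the gland itself.

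A single list of 32011 distinct regions was taken as the list of all samples together. The study describes a consensus list with more peaks than this, so it is not certain that the list used here is that one, and counts, folds and background shares describe this list alone. It holds no value for any sample, so passages and ages could not be compared, the spread between mice is unknown, and no test was made. The depth behind the list is unknown as well. A gene without a listed region may therefore still be open, below what the authors' calling reported. Each region carries a fold of signal over its local background at its strongest summit, and a score of reproducibility (IDR) that ends at 1000. The lowest score in the list was 540. Regions of the list lay at the 5′ ends of 8 of 10 epithelial marker genes, among them Cdh1, Krt5, Krt14, Krt8 and Sox9, and at 0 of 8 immune, 0 of 4 endothelial and 0 of 4 fibroblast marker genes. Krt18 and Trp63 were the epithelial markers without one. The share over all protein-coding genes was 38.3%, with a region counted within 1 kb of the 5′ end. Only the outermost 5′ end of each marker gene was read, so a region at another start of the gene was not counted.

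The proteasome is the protease that degrades ubiquitin-tagged proteins in every cell. Its core particle is a stack of alpha rings (Psma genes) and beta rings (Psmb genes), and the beta subunits Psmb5, Psmb6 and Psmb7 cut the substrate. Regulatory particles made of ATPases (Psmc genes) and other subunits (Psmd genes) bind the ubiquitin tag, remove it and unfold the substrate. Cells exposed to interferon gamma exchange the cutting subunits for Psmb8, Psmb9 and Psmb10, which changes the peptides available for antigen presentation. Cortical epithelium of the thymus uses Psmb11 in the place of Psmb5, and male germ cells use Psma8 in the place of Psma7.

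A region was counted at a 5′ end when its midpoint lay within 1 kb of the outermost 5′ end of the gene. By this measure 37 of the 51 proteasome genes (72.5%) had an open 5′ region, and the background was 38.3% of all protein-coding genes. Among the constitutive subunits, meaning both core rings without the immune, thymic and testis forms plus the regulatory particle, 25 of 31 had a region (80.6%). The immune subunits had 1 in 3, which was Psmb9, and the thymic or testis subunits had 0 in 2. Among genes of other complexes that all cells use, a region was listed for 70 of 85 ribosomal protein genes (82.4%) and for 32 of 37 complex I genes of the Nduf families (86.5%).

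**Figure D1:**
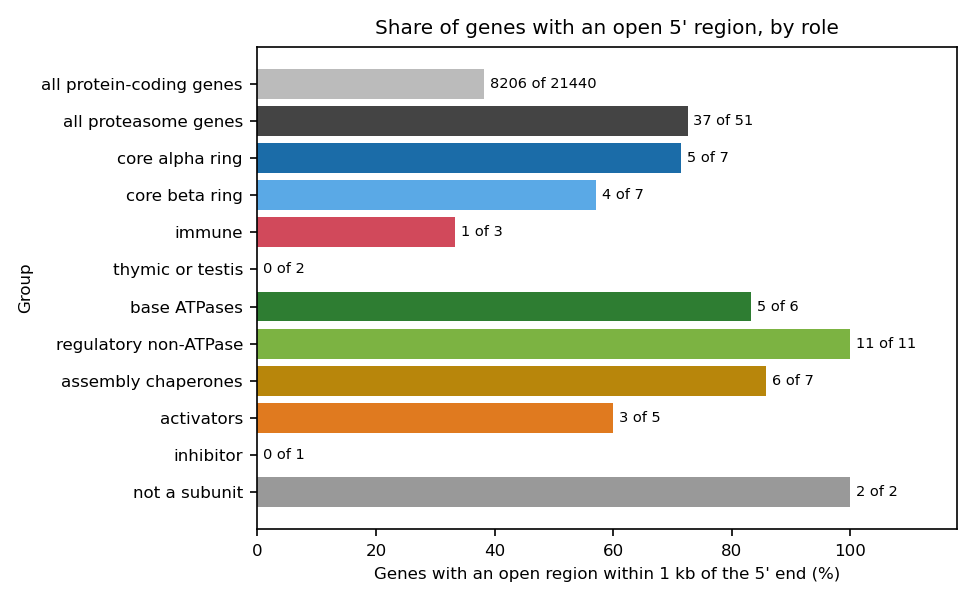
Bars give the percentage of genes in each group with an open region midpoint within 1 kb of the 5′ end, starting at 0, with the number of genes beside each bar. The non-ATPase regulatory subunits reach 11 of 11, and the immune subunits 1 of 3 against 8206 of 21440 for all protein-coding genes.

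Promoters of members that differed in these values are printed here, so that a reader can see what lies at an open and at an unlisted 5′ end. Each is the run of 250 bases before a RefSeq start site in GRCm38.p6, 5′ to 3′ on the strand of the gene. Capitals mark matches to short motifs searched on either strand, and matches that overlap run together. The motifs are the antioxidant response element core TGACNNNGC, the CCAAT box CCAAT, the ETS core CCGGAAG, the GC box GGGCGG, the YY1 core ATGGCGGC, the NRF1 core CGCATGCG, the core of the interferon-stimulated response element, the gamma-activated site core TTCNNNGAA and the TATA box TATAAA. Psma2, Psmd6 and Psme4 had the highest folds of the core, the regulatory particle and the activators, and Psmc1 is shown as an ATPase gene with an ETS core and a fold nearer to the middle of the members. The region of Psma2 was shared with Mrpl32.
Psma2, chr13:14612992-14613241, plus strand: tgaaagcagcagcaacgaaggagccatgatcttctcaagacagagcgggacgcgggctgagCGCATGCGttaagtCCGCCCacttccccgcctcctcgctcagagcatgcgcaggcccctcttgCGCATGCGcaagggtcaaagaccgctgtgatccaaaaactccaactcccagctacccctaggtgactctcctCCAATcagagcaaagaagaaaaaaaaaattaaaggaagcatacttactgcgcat
Psmd6, chr14:14120946-14121195, minus strand: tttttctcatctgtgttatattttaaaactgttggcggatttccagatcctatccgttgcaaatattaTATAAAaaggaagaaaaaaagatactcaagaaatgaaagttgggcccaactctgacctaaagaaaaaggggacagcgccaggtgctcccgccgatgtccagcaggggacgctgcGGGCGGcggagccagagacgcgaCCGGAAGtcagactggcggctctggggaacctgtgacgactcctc
Psme4, chr11:30771525-30771774, plus strand: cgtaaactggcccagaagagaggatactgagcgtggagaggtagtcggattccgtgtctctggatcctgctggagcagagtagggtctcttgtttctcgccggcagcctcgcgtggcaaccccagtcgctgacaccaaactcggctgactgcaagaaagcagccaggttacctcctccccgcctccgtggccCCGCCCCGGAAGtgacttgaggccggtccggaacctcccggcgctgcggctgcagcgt
Psmc1, chr12:100109952-100110201, plus strand: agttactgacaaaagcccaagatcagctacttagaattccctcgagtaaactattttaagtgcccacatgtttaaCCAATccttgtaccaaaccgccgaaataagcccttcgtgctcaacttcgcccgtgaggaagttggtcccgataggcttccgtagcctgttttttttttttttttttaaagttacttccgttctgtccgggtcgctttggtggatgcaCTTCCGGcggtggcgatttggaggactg
The next pair are the cutting subunit Psmb6 and its immune counterpart Psmb9, which had regions.
Psmb6, chr11:70525107-70525356, plus strand: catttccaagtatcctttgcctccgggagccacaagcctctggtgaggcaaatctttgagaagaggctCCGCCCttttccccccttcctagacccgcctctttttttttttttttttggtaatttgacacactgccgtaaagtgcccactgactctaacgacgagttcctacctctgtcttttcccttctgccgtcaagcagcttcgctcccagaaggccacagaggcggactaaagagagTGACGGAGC
Psmb9, chr17:34187331-34187580, minus strand: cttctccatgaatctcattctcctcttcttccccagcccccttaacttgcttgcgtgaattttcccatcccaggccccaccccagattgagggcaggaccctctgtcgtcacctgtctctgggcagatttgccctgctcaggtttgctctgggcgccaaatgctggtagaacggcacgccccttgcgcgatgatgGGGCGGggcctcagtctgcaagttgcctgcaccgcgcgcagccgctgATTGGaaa
The last 4 are the cutting subunit Psmb5, the immune subunits Psmb8 and Psmb10 and the thymic subunit Psmb11, which had none within 1 kb.
Psmb5, chr14:54617996-54618245, minus strand: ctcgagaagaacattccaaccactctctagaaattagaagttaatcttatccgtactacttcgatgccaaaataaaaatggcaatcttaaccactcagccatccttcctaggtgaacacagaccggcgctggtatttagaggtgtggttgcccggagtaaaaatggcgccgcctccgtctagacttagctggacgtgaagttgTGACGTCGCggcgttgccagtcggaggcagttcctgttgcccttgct
Psmb8, chr17:34197945-34198194, plus strand: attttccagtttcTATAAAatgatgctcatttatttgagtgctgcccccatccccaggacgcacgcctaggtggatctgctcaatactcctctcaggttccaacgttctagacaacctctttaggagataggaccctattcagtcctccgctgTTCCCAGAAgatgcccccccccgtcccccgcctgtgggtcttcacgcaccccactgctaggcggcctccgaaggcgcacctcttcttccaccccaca
Psmb10, chr8:105938393-105938642, minus strand: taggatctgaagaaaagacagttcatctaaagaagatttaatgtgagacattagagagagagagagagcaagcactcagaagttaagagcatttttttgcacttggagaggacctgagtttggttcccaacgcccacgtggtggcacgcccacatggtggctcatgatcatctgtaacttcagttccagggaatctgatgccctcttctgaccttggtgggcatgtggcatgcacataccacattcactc
Psmb11, chr14:54625060-54625309, plus strand: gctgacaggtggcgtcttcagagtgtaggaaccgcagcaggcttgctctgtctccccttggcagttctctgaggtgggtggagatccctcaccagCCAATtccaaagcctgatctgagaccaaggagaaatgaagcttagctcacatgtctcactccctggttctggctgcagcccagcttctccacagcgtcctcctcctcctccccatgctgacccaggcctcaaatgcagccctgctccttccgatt

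Of the 7 constitutive alpha ring genes, which form the outer gate of the core, 5 had an open 5′ region. Psma2 had the highest fold of all members, 15.69, in a region at chr13:14612810-14613561 of 752 bp with 5 summits. Psma5 followed in this ring with 13.10 and Psma1 with 12.06, while Psma4 had 9.63. Psma7, at chr2:180042329-180042610, had the lowest fold of the ring, 6.57, and a single summit. The regions of Psma2, Psma4 and Psma7 were each shared with a gene on the opposite strand, so their folds cannot be assigned to either gene. The list gives 1 value for each region, so the folds rank regions within it and carry no error.

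Psma3 and Psma6 had no region at the outermost 5′ end, but both had one at another start. The nearest region of Psma3 lay 1071 bp upstream of the outermost 5′ end, just past the limit, with a fold of 5.71. Its RefSeq start site lay 5340 bp further into the gene, and there a region with a fold of 12.33 (chr12:70974420-70974807) had its midpoint 10 bp from the start. Psma6 has a second RefSeq start 14603 bp into the gene, and a region with a fold of 12.02 (chr12:55398615-55399084) lay 24 bp from it. Thus all 7 alpha ring genes had an open region within 1 kb of some annotated start.

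In the beta ring 4 of 7 constitutive genes had an open 5′ region. Of the subunits that do not cut, Psmb1 had a fold of 7.20, Psmb2 of 12.17 and Psmb3 of 7.44, and the region nearest to Psmb4 lay 1910 bp upstream with a fold of 5.78. Of the 3 cutting subunits only Psmb6, the caspase-like subunit, had a region, with a fold of 7.64 at chr11:70525109-70525444. Psmb5, which carries the chymotrypsin-like activity, had no region closer than 14576 bp downstream of its 5′ end, although that one (chr14:54603168-54603670) had a fold of 13.81. Psmb7, which carries the trypsin-like activity, had its nearest region 14997 bp into the gene with a fold of 4.58.

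Each immune subunit had the same listing at its 5′ end as the cutting subunit it replaces. Psmb9, the counterpart of Psmb6, had a region with a fold of 7.02, an IDR score of 1000 and 2 summits at chr17:34187262-34187858. Psmb8, the counterpart of Psmb5, had its nearest region 5147 bp upstream, with a fold of 5.64. Psmb10, the counterpart of Psmb7, had its nearest region 21192 bp upstream, with a fold of 9.95. Psmb6 and Psmb9 were listed and Psmb5, Psmb7, Psmb8 and Psmb10 were not. That is 1 of 3 in each set, near the background of 38.3%, and with so few genes it is a description only.

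The region of Psmb9 was not its own. It lay 230 bp upstream of the 5′ end of Psmb9 and 4 bp from the 5′ end of Tap1, the peptide transporter gene that is read from the opposite strand and starts 226 bp away. Fold and score therefore belong to the shared interval and cannot be assigned to either gene. Psmb8 and Psmb9 are neighbours and shared the same 5 regions within 50 kb. The strongest of these, with a fold of 13.22 and 3 summits at chr17:34218557-34219136, lay 20651 bp downstream of the 5′ end of Psmb8 and 31516 bp upstream of that of Psmb9.

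The thymic subunit Psmb11 had no region within 1 kb. It lies beside Psmb5, and its nearest region was 16150 bp downstream with a fold of 5.81. Of its 4 regions within 50 kb, all were also within 50 kb of Psmb5, including the region of fold 13.81. The testis subunit Psma8 had 1 region within 50 kb, 23496 bp upstream, with a fold of 9.47. Marker genes of the cells that use these subunits gave 1 of 4 for thymic epithelium, which was Ccl25, and 1 of 4 for germ cells, which was Dazl. No region lay at the 5′ end of Foxn1, Prss16, Aire, Ddx4, Sycp3 or Stra8. The share over all protein-coding genes was 38.3%, and with so few markers these counts are a description only.

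In the regulatory particle 16 of 17 genes were listed. All 11 non-ATPase subunits had an open 5′ region. Psmd6, a subunit of the lid, had a fold of 15.20 at chr14:14120667-14121115, and Psmd14, the protease that removes ubiquitin from the substrate, had 13.30 at chr2:61711481-61712030. The ubiquitin receptor Psmd4 had 9.96. At the low end Psmd13 had 5.28, in a wide region of 878 bp with 5 summits. Psmd1, a scaffold of the base, was the only member with 2 regions within 1 kb, with folds of 6.29 and 4.79. Psmd2, the other scaffold, had the most distant of the counted regions, 523 bp into the gene, and this was 7 bp from its RefSeq start.

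Among the ATPases, which thread the substrate into the core, 5 of 6 had an open 5′ region. Psmc4 had the highest fold, 11.74, then Psmc6 with 9.93, Psmc1 with 9.82 and Psmc3 with 9.30, and Psmc2 had 5.64. Psmc5 was the exception, with its nearest region 12372 bp downstream, a fold of 4.02 and an IDR score of 574. It was not isolated from open chromatin, since 5 regions lay within 50 kb of its 5′ end. Psmc2 has a second RefSeq start 1472 bp into the gene, and a region with a fold of 6.81 lay 25 bp from it. The region of Psmc3 was shared with Gm13778, a gene not classed as protein-coding that starts 7 bp away on the opposite strand. Its fold therefore cannot be assigned to either gene.

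**Figure D2:**
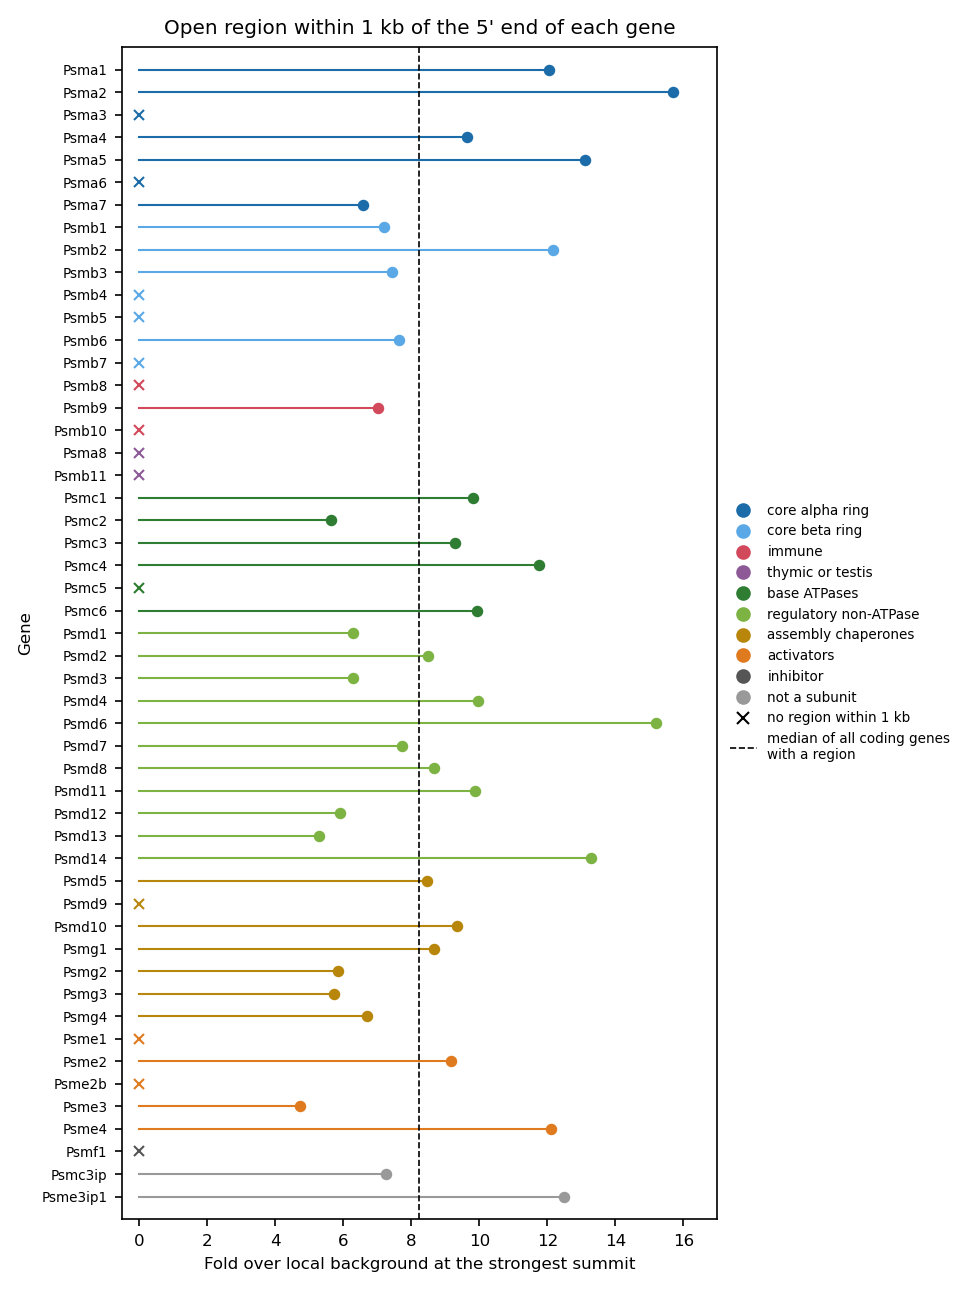
Points give the fold over local background at the strongest summit of the nearest region within 1 kb of each 5′ end, coloured by role, and crosses mark the 14 members with none. The dashed line is the median of 8.23 over all protein-coding genes with such a region, and members lie on both sides of it, from 4.74 for Psme3 to 15.69 for Psma2. Regions shared with another gene, such as that of Psma2, are included.

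Factors that assemble the proteasome were mostly listed, with 6 of 7. Psmg1, Psmg2, Psmg3 and Psmg4, which build the core, had folds of 8.67, 5.85, 5.74 and 6.70. Of the chaperones of the base, Psmd10 had 9.35 and Psmd5 had 8.47. Psmd9, the remaining one, was the only member with no region within 50 kb, a state found in 25.7% of all protein-coding genes, and its nearest region lay 78339 bp upstream.

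Activators cap the core in place of the regulatory particle, and 3 of 5 had an open 5′ region. Psme4, the large single-chain activator, had a fold of 12.12 at chr11:30771435-30771882. Psme3, the nuclear activator, had the lowest fold and the lowest IDR score among the listed members, 4.74 and 542. That score was close to the lowest of the list, 540. Psme1 and Psme2 encode the partners of the interferon-inducible activator and are neighbours, yet only Psme2 had a region. It was the widest of all members, 969 bp with 5 summits and a fold of 9.16 (chr14:55590888-55591856), and it was shared with Rnf31, which starts 612 bp away on the other strand. The nearest region of Psme1 lay 6779 bp downstream with a fold of 8.75. Psme2b, a short gene of 1066 bp related to Psme2, had its nearest region 27252 bp downstream with a fold of 2.29.

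The inhibitor Psmf1 had no region at its outermost 5′ end. A region with a fold of 7.64 (chr2:151740869-151741444) lay 3043 bp into the gene and 154 bp from its RefSeq start. When RefSeq start sites were counted beside the outermost end, Psma3, Psma6 and Psmf1 were added and 40 of the 51 members had an open region at a start, and the background rose to 41.8%. The other members stayed without one. For Psmb7 and Psma8 no RefSeq start site was available, so only their outermost 5′ end could be read. The 2 genes taken in by symbol alone both had a region, with folds of 7.27 for Psmc3ip and 12.50 for Psme3ip1.

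Folds at the listed 5′ ends lay within the range of other genes. The median fold of the 37 members was 8.67 (quartiles 6.70 and 9.96), beside 8.23 (quartiles 6.32 and 10.95) for the 8206 protein-coding genes with a 5′ region, and 21 of 37 members lay above the latter median. The median width was 529 bp beside 477 bp. An IDR score of 1000 was given for 25 of 37 members, and the background was 60.7%. More than 1 summit was listed in 32 of 37, and the background was 78.2%. None of these values was tested, because members and genome share 1 list without replicates.

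Most regions of the members sat close to the 5′ ends, as did those of other protein-coding genes. The midpoint was within 100 bp of the 5′ end in 23 of 37 members (62.2%), and the background was 53.6%. It was within 200 bp of the 5′ end in 31 of 37 members (83.8%), beside 78.1% of all protein-coding genes with a 5′ region. The 5′ end itself was inside the region in 36 of 37, with Psmd2 the exception, beside 84.7%. The strongest summit was within 100 bp in 29 of 37, beside 59.0%. It lay upstream of the 5′ end in 24 of 37, and the background was 57.9%. Midpoints were divided evenly between the upstream side, with 18, and the downstream side, with 19. That division was not counted over all protein-coding genes. With downstream as positive, the median midpoint was 1 bp for members and -9 bp for all protein-coding genes with a 5′ region.

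**Figure D3:**
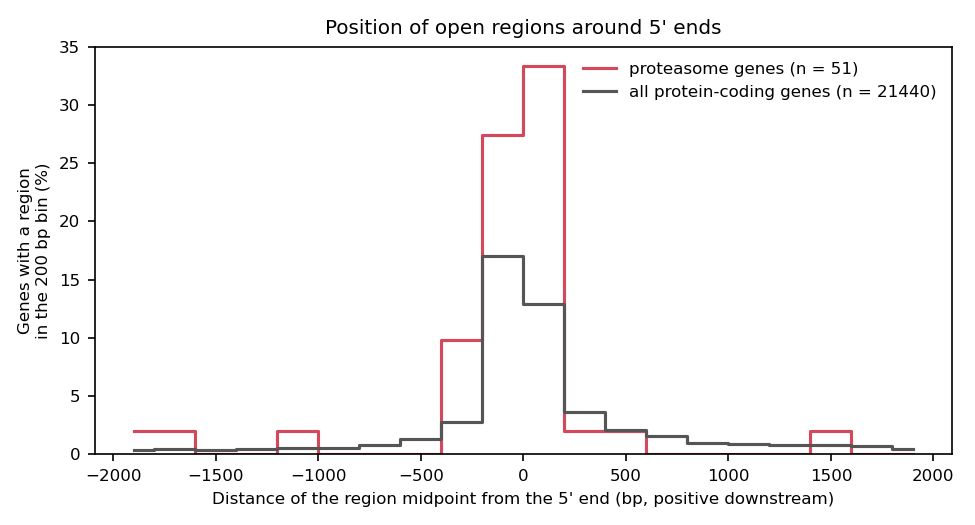
Lines give the percentage of genes with a region midpoint in each bin of 200 bp around the 5′ end, for the 51 proteasome genes and for all 21440 protein-coding genes. Proteasome genes reach 33.3% in the bin from 0 to 200 bp downstream, beside 12.9% for all protein-coding genes. Both are shares of all genes, with or without a region. They therefore also hold the difference between 72.5% and 38.3% of genes with a region within 1 kb.

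Some of the regions lay near the 5′ ends of a pair of genes. The 5′ region of 10 of 37 members was also within 1 kb of the 5′ end of another protein-coding gene, and the background was 23.1%. In all 10 the partner was read from the opposite strand. The share of such pairs over all protein-coding genes was not counted, so this is a description only. Psma7 and Ss18l1 start 19 bp apart, Psmc2 and Dnajc2 11 bp, Psmd13 and Sirt3 85 bp, Psma2 and Mrpl32 205 bp, and Psmg2 and Cep76 232 bp. Mrpl32 encodes a protein of the mitochondrial ribosome and Sirt3 a mitochondrial deacetylase. The remaining partners were Tap1, Rnf31, Pcgf2 beside Psmb3, AY074887 beside Psma4 and Rspry1 beside Psme3ip1. A fold at such a region cannot be assigned to either gene.

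Regions were also counted further from the 5′ ends. Within 50 kb the members had a median of 3 regions, from 0 to 7, beside a median of 2 for all protein-coding genes. Their surroundings also held more genes, with a median of 2 other protein-coding 5′ ends within 50 kb beside 1. Regions more than 1 kb from every protein-coding 5′ end numbered a median of 1 in both sets, with means of 1.37 and 1.31. Psme1 and Psme2 had the most regions within 50 kb, 7 each, in a window with 8 other protein-coding 5′ ends, and 6 of these regions were within reach of both genes. Psmc6 had 6. Psmb2, Psmd14, Psma4 and Psmd10 had only the region at their 5′ end. The windows of all members together held 148 distinct regions.

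**Figure D4:**
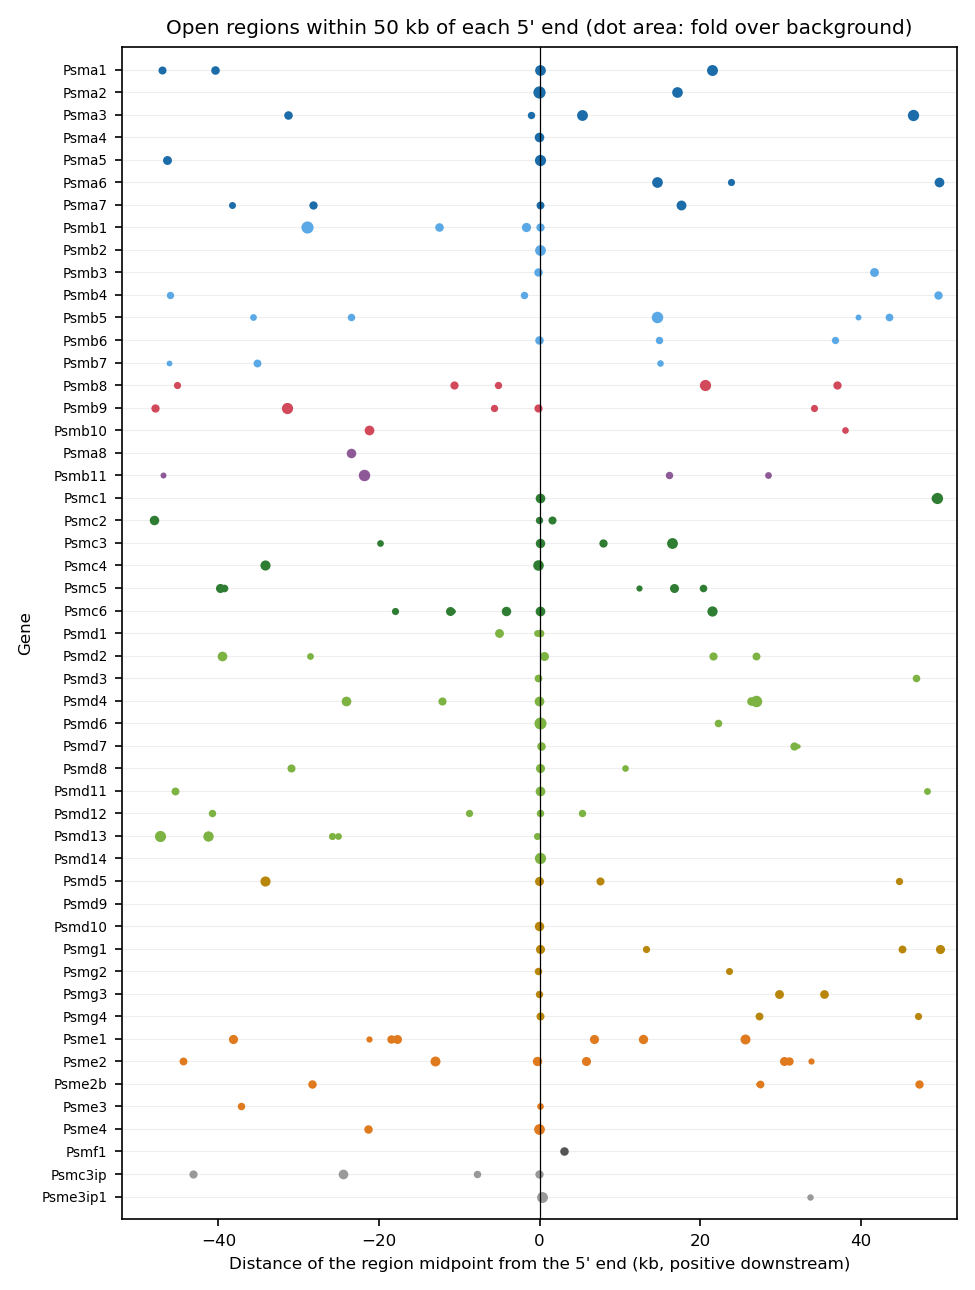
Each dot is a region whose midpoint lies within 50 kb of the 5′ end of the gene named on the left, with its signed distance in kb on the horizontal axis and its fold as dot area, coloured by role as in the plot of folds. Most rows have a dot at 0, whereas the 14 members without a 5′ region, in every role but the non-ATPase regulatory subunits and the genes that are not subunits, have regions only further away or, for Psmd9, none.

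The promoters printed above can be set beside those of all members. RefSeq promoter sequences of 300 bases, 250 before and 50 after a start, were matched for 43 of 51 members and for 17492 protein-coding genes. Those of members had a median of 57.3% G and C and a ratio of observed to expected CpG of 0.763, beside 56.3% and 0.577 for all. For the 33 members with a region within 1 kb of the start the ratio was 0.793, beside 0.801 for the 7115 such genes of the genome, and for the 10 members without it was 0.533, beside 0.290. Psmb11, Psmb10, Psma6 and Psme2b had the lowest ratios, 0.165, 0.192, 0.185 and 0.0904. The sequence of Psma6 was that of its outermost start, which is why it is among the 10. No sequence was read at its second start, 14603 bp into the gene, where the open region lay. Psmb5 and Psmc5 had 0.999 and 0.837, although neither had a listed region.

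The ETS core, the letters bound by factors of the ETS family, was found in 15 of the 43 member promoters (34.9%), beside 11.9% of all protein-coding promoters. All 15 were among the 33 with a region, a share of 45.5% beside 21.6% for promoters of the genome with a region. Among the 10 without a region 0 held it, which is near the 5.27% for promoters of the genome without one. In each of the 15 a match lay inside the open region. The capitals in Psmd6, Psme4 and Psmc1 include such matches, at 45, 53 and 28 bases before the start. Matches describe letters in this window and do not show binding.

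Shares for the other motifs lay on both sides of those of the genome. The antioxidant response element core, to which the proteasome regulator encoded by Nfe2l1 can bind, was in 6 of 43 promoters, beside 13.1% of all, and these were Psmb5, Psmb6, Psmc6, Psmd9, Psmd12 and Psme4. The CCAAT box was in 37.2% beside 39.2%, and the GC box in 55.8% beside 46.3%. Among promoters with a region the order for the GC box was reversed, with 63.6% for members beside 69.4% for the genome. The interferon-stimulated response element core was in 5 (11.6%) beside 3.40%, in Psmb3, Psmd4, Psmd9, Psme1 and Psmg4. In Psme1 it lay 9 bases after the start. No such match was in the windows of Psmb8, Psmb9 and Psmb10, and the gamma-activated site core was in that of Psmb8. That core was in 3 member promoters (6.98%) beside 7.78%. The NRF1 core was in 2 (4.65%) beside 2.55%, with a pair of matches in Psma2, the YY1 core in 2 (4.65%) beside 3.21%, and the TATA box in 4 (9.30%) beside 13.3%.

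Genes that work with the proteasome were read in the same way from lists chosen for this pathway. Of 19 partner genes in the table, 17 had an open 5′ region (89.5%), and the background was 38.3% of all protein-coding genes. Ribosomal protein genes, at 82.4%, and complex I genes of the Nduf families, at 86.5%, were at a similar level. Uchl5, a deubiquitinase of the regulatory particle, had a fold of 13.46, and the unfolding ATPase Vcp had 12.59. Nfe2l1, the transcription factor that raises proteasome genes when the protease is blocked, had 9.97. Pomp, which matures the core, had 9.23, and the receptor Adrm1 had 7.60. Ecpas was among those with none at the outermost 5′ end.

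Of 12 genes of antigen processing and interferon signalling, 9 had an open 5′ region (75.0%), beside 38.3% of all protein-coding genes. The region of Tap1 was the one shared with Psmb9. B2m, the light chain of class I molecules, had a fold of 10.84. The interferon mediators Stat2 and Irf9 had 11.87 and 10.39, the receptor gene Ifngr1 had 10.57 and the class I regulator Nlrc5 had 7.14. Tap2, Irf1 and Ifngr2 had none. Psmb8 and Psmb10 also had none, so genes of this pathway included both listed and unlisted 5′ ends.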

How the data were processed

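The data were 1 list of open regions, deposited for 4 samples of mSGOs. Alignment and peak calling were done by the authors in the ENCODE ATAC-seq pipeline, described as run on all organoid samples. The pipeline's version and filters are not given in the sources used here, and the submitters' processing notes name HOMER and GRCm39. The deposited file gives, without a header, an IDR score, the summit's fold over the local level (a ratio), and the q-value as −log10 for every summit (the p-value column was not used). Its 69545 lines were joined into 32011 regions of equal chromosome, start and end, which kept the values of the summit with the lowest q-value. The list was read as GRCm38: at 5′ ends of GRCm39, 1 member had a region, against 37 at those of GRCm38.p6.

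Gene bounds came from the RefSeq table of GRCm38.p6, and strand from RefSeq promoters of that build (43 members) or, by name alone, from GENCODE mouse release 39 (8 members). Of 21900 protein-coding genes, 460 had no strand or chromosome in common with the list and were left out. Genes were named by role: all members, with values for immune, thymic and testis subunits and their counterparts, members without a region, the extremes of fold, width and number of regions, and genes of chosen lists. Paaf1, a further partner gene, was not analysed here, and some genes counted in these lists are not reported here by name. Members and lists were chosen with earlier results of these data known. Values are described beside all protein-coding genes, with no test. Distances were tested on simulated data. Alternatives were other distances, region sets and start sites. Scripts ran in Python 3.11.15 with pandas 2.3.3 and numpy 2.4.6, and plots were drawn with matplotlib 3.10.9.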

Additional observations from a re-analysis of the deposited data

How the results depend on the processing

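No paired analysis was possible because the list has no columns per sample, and for the same reason no sample could be left out. The number of proteasome genes with an open 5′ region ranged from 25, with regions of an IDR score of 1000, to 40, with any start site or within 5 kb. Immune subunits stayed at 1 of 3 and thymic or testis subunits at 0 of 2 under each of these 9 alternatives, of which the distance of 5 kb was added after the data were seen. For Psma8 the alternative of any start site could change nothing, because no RefSeq start site was available. The share of all protein-coding genes moved from 38.3% to 35.4% within 500 bp, 41.4% within 2 kb and 46.5% within 5 kb, to 39.1% with any part of the region and 39.9% with either end of the gene, to 41.8% with any start site, and to 25.9% and 24.0% in the stricter sets by q-value and by IDR score. With GRCm39 5′ ends, a check added later, the number of members was 1. The median number of regions around members and around all genes became 6 and 4 within 100 kb, 1 and 1 in the stricter set by q-value, and 1 and 1 when regions at protein-coding 5′ ends were left out. Within 25 kb the median of all genes was 1. These sets are larger or smaller by construction. Of 59 alternative values, 43 stayed within the limits set. These were a ratio of 1.5 for a count and the 95% Wilson interval of 37.6% to 38.9% for the share of all genes. A count of 25 members beside 37 lay within them, so the 43 do not measure stability. Without the depth of each sample, a missing region cannot be read as closed chromatin.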

Other observations

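Members of the core and of the regulatory particle differed in which promoters held the ETS core, a split that was chosen after its values were seen and was not tested. The share over all protein-coding promoters was 11.9%. Of 11 promoter sequences of the constitutive core rings, 0 held it, and of 14 promoter sequences of the regulatory particle, 9 did (64.3%). These 9 were Psmc1, Psmc2, Psmc6, Psmd2, Psmd4, Psmd6, Psmd11, Psmd12 and Psmd13. The other 6 matches among members were in Psmg1 and Psmg3, which assemble the core, in Psme3 and Psme4, and in Psmc3ip and Psme3ip1. The 4 promoters of immune and thymic subunits held none. With so few promoters, 0 of 4 and 0 of 11 lie near the share of 11.9% over all promoters.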
